A study of Mus musculus with 7 samples.

Results

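A set of 10 chromatin regulator genes that are recurrently mutated in human B-cell acute lymphoblastic leukemia (B-ALL) were followed in RNA-seq of Eμ-Ret mice: Crebbp, Ep300, Kmt2a, Kmt2d, Setd2, Ezh2, Suz12, Eed, Ctcf and Arid1a. They were chosen by name and not by a measured value, though earlier results of these data were known at the time. All 10 were found among the 24341 genes of the deposited table. The libraries came from B-cell precursor (BCP) cells sorted by flow cytometry from spleen, with 4 labelled preleukemic and 3 labelled overt disease, here called leukemic. Every mouse, in both groups, was an Emu-Ret hemizygote on a BALB/c background, so no library came from a mouse without the transgene. The transgene places an oncogenic Ret fusion gene under the immunoglobulin heavy chain enhancer, which drives it in the B lineage. Per the study, preleukemic cells were taken from young healthy mice and leukemic cells from older moribund mice, so age and disease stage cannot be told apart. The labels give no age for single mice and do not say whether a library is 1 animal or a pool, so p-values measure the spread between these libraries.

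Chromatin regulators set which stretches of DNA a cell can read. CBP and p300, the products of Crebbp and Ep300, acetylate histones at enhancers and promoters. MLL1 (Kmt2a) and MLL4 (Kmt2d) methylate histone H3 at lysine 4, a mark of active promoters and enhancers, and SETD2 writes lysine 36 trimethylation along transcribed genes. EZH2, SUZ12 and EED form the core of Polycomb repressive complex 2 (PRC2), which trimethylates lysine 27 and keeps genes silent. CTCF anchors chromatin loops together with cohesin, and ARID1A is the DNA-binding subunit of the BAF (SWI/SNF) remodelling complex. In B-ALL these genes mostly carry mutations expected to reduce function or, for KMT2A, fusions, and an RNA level does not report on either.

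The 3 PRC2 core genes are shown first with the sequence just upstream of their starts, because they encode subunits of a single complex and had small differences between the groups. The bases come from RefSeq on GRCm38.p6, the 150 bases before the start of transcription, written 5′ to 3′ on the strand of the gene, at chr6:47595031-47595180 (minus strand) for Ezh2, chr11:79992956-79993105 (plus strand) for Suz12 and chr7:89980977-89981126 (minus strand) for Eed. Capitals mark CCAAT, the letters bound by NF-Y, and GGGCGG, the letters bound by SP and KLF factors, on either strand.
Ezh2: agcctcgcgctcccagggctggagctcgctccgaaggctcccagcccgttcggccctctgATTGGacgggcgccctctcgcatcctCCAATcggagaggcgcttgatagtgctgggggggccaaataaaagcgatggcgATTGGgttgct
Suz12: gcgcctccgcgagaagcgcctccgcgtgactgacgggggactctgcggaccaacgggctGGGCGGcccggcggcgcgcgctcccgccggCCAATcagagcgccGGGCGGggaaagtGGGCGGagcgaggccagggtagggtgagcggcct
Eed: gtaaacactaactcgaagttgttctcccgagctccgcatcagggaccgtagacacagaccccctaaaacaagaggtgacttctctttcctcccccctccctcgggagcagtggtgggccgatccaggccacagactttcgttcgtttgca

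The same motifs, with the E2F letters TTTCCCGC and TTTGGCGC and the NRF1 motif, were searched on both strands in the 250 bases before the start, overlapping matches included. A RefSeq start within 50 bases of the start in the deposited table was found for 9 of the 10 genes, all but Arid1a. CCAAT was present at 2 of them (Ezh2 and Suz12), against 33.8% of 32851 RefSeq promoters. GGGCGG was present at 7 of the 9 (all but Ezh2 and Eed), against 32.7% of promoters, and it matches GC-rich sequence at large. TTTCCCGC lay upstream of Suz12, outside the stretch printed here (0.895% of promoters), the NRF1 motif upstream of Ezh2 (3.74%), and TTTGGCGC at none of the 9 (0.417%). A match is a run of letters and not a bound site.

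The values are FPKM, fragments per kilobase of transcript scaled to the number of mapped fragments, which the authors computed per gene and library. FPKM is per length, so levels can be compared between genes, within the limit of the length trend between groups described below. The steps between low values gave a depth of 13600000 to 15950000 fragments per library, and at that depth the 10 genes had about 1121 to 9908 fragments per library, a counting error of 1.005% to 2.99% before any other error. Differences between groups were tested with limma on log2(FPKM + 1) over 10541 genes (those whose FPKM summed to 10 or more across the libraries), tested in both directions, with Benjamini-Hochberg adjustment over all of them, and a gene was called at an adjusted p under 0.05. A fold change here is the leukemic minus the preleukemic mean on that log2 scale, with its standard error (SE).

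Markers of cell types were checked in each library first. The B-cell precursor markers were present throughout, but their summed level was 3581 to 5399 FPKM in leukemic and 6562 to 8211 FPKM in preleukemic libraries, and Enpep, which encodes the BP-1 antigen of these cells, was 19.1 FPKM in leukemic replicate 1 against 77.2 and 102 FPKM in the other leukemic and 134 to 210 FPKM in the preleukemic libraries. Of the 14 B-cell precursor markers 4 were called lower (Vpreb1 and, named after their values were seen, Ebf1, Igll1 and Pax5), and 13 had a lower leukemic mean on the log2 scale. Red cell precursor markers, 15 genes of 18 listed, summed to 5222, 25757 and 12446 FPKM in leukemic replicates 1 to 3, to 2540 FPKM in preleukemic replicate 1 and to 239 to 283 FPKM in the other preleukemic libraries, and all 14 tested were called higher. Macrophage markers summed to 169 to 384 against 39.1 to 93.3 FPKM (8 of 12 called higher), neutrophil markers to 1425 to 1764 against 150 to 870 FPKM (5 of 11), platelet markers to 14.9 to 54.6 against 2.55 to 4.14 FPKM (4 of 5) and T and NK cell markers to 39.7 to 156 against 60.6 to 104 FPKM (0 of 10, with 3 at an unadjusted limma p under 0.05). The defining markers Klf1, Csf1r, S100a8, Cd3e and Pf4 were above the table's lowest value in all libraries except Pf4 in preleukemic replicate 4, listed at 0.01 FPKM. In bulk RNA, fewer cells of a type and less RNA per cell cannot be told apart, and the part of these other cells in the results below was not tested.

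All 10 genes were expressed in every library, and none was called (limma, 0 of 10, against 14.7% of all genes tested, 6.26% lower and 8.47% higher in leukemic cells). At an unadjusted p under 0.05 there were 2, Crebbp and Arid1a, against 34% of all genes, and limma was the only tool run. The leukemic mean was lower for 7 and higher for 3, and the median log2 fold change was -0.21, beside -0.02 over all genes tested. The groups did not overlap for 1 of the 10, Crebbp, against 32% of all genes (17.1% with leukemic lower). The counts of calls and of groups apart are smaller shares than the background of the table, and the 7 of 10 with a lower leukemic mean stand beside 52.1% of all genes tested. That share was 73.8% for genes with transcripts of 8 to 12 kb and 81.1% for those over 12 kb. Of the 10 genes, 6 have transcripts over 8 kb, as described below.

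**Figure D1:**
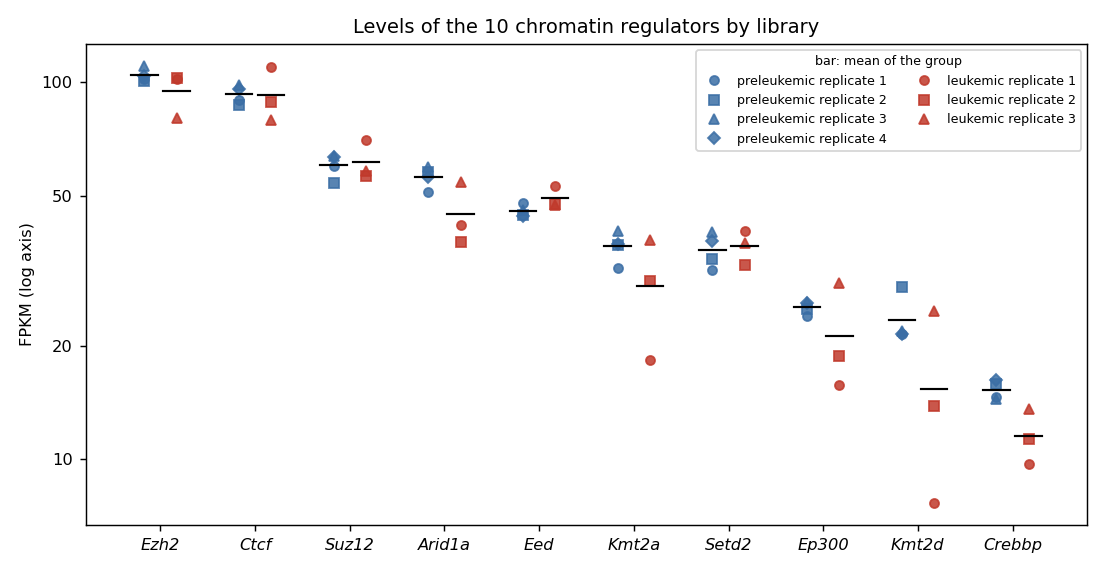
FPKM on a log axis for each of the 10 genes, with 1 point per library (preleukemic blue, leukemic red) and a bar at each group mean, ordered by preleukemic mean. Preleukemic points of a gene lie close together, while leukemic points of Kmt2d run from 7.65 to 24.7 FPKM and those of Kmt2a from 18.3 to 38.2 FPKM.

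In preleukemic BCP cells the mean levels ran from 15.3 to 104 FPKM. Ezh2 was highest, at 104 ± 4.41 FPKM (SD, n = 4), then Ctcf at 93.0 ± 5.24, Suz12 at 60.3 ± 4.39, Arid1a at 56.2 ± 3.61, Eed at 45.6 ± 1.76, Kmt2a at 36.7 ± 3.33, Setd2 at 35.95 ± 3.74, Ep300 at 25.3 ± 0.992, Kmt2d at 23.4 ± 3.50 and Crebbp at 15.3 ± 0.884 FPKM. The ranges of neighbours in that order overlapped for Suz12 and Arid1a, for Kmt2a and Setd2 and for Ep300 and Kmt2d, and for no other pair of neighbours. Among the PRC2 core genes the catalytic subunit was thus the most abundant transcript and Eed the least. The leukemic libraries spread more for 9 of the 10 genes, all but Setd2 (10.2% against 10.4%): the coefficient of variation over replicates was 56.0% for Kmt2d, 34.7% for Kmt2a and 33.6% for Ep300, against 14.99%, 9.08% and 3.93% in preleukemic libraries, and it was 6.54% against 3.86% for Eed.

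Of the acetyltransferase genes, Crebbp (chr16:4084048-4213404, mm10) was 9.74, 11.3 and 13.6 FPKM in leukemic replicates 1, 2 and 3 and 14.7, 15.9, 14.4 and 16.2 FPKM in preleukemic replicates 1 to 4. Every leukemic value lay below every preleukemic value, with leukemic replicate 3 nearest to them. The log2 fold change was -0.39 (SE 0.12, 95% interval -0.66 to -0.11), with an adjusted p of 0.0662, so the smallest adjusted p among the 10 genes missed the threshold. Its close relative Ep300 (chr15:81586214-81652077) was 15.7, 18.8 and 29.3 FPKM in leukemic and 23.9, 25.1, 26.1 and 26.0 FPKM in preleukemic libraries. Here leukemic replicates 1 and 2 were below all preleukemic libraries and replicate 3 was above them, which gave -0.28 (SE 0.19, adjusted p = 0.318).

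Of the H3K4 methyltransferase genes, Kmt2d (chr15:98831669-98871205) had the largest difference of the 10 and the widest interval. It stood at 7.65, 13.9 and 24.7 FPKM in leukemic and at 21.5, 28.6, 22.0 and 21.5 FPKM in preleukemic libraries. Leukemic replicate 1 was thus at 32.7% of the preleukemic mean, replicate 2 at 59.3% and replicate 3 at 106%, and the groups overlapped. The log2 fold change was -0.70 (SE 0.33, interval -1.48 to 0.08, adjusted p = 0.181). Kmt2a (chr9:44803355-44881274) was 18.3, 29.8 and 38.2 FPKM against 32.3, 37.1, 40.3 and 37.1 FPKM. The order of the leukemic replicates was the same as for Kmt2d, with replicate 1 at 49.9% of the preleukemic mean and replicate 3 inside the preleukemic range, for a log2 fold change of -0.40 (SE 0.22, adjusted p = 0.249). The H3K36 methyltransferase gene Setd2 (chr9:110532597-110618633) was 40.3, 32.9 and 37.4 FPKM against 31.8, 34.0, 40.1 and 37.9 FPKM. The groups covered the same range, and the log2 fold change was 0.04 (interval -0.22 to 0.29, adjusted p = 0.839).

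The PRC2 core genes had group means within 0.14 of each other on the log2 scale. Ezh2 (chr6:47530274-47595030) was 102, 103 and 80.5 FPKM in leukemic and 102, 101, 111 and 104 FPKM in preleukemic libraries. Only leukemic replicate 3 lay outside the preleukemic range, below it, and the log2 fold change was -0.14 (interval -0.38 to 0.10, adjusted p = 0.363). Suz12 (chr11:79993106-80034123), which holds the complex together, was 70.4, 56.4 and 58.1 FPKM against 60.02, 54.3, 63.7 and 63.4 FPKM. Leukemic replicate 1 was highest, the groups overlapped, and the log2 fold change was 0.03 (interval -0.22 to 0.27, adjusted p = 0.877). Eed (chr7:89954654-89980976), whose product reads the H3K27 mark, was 53.1, 47.7 and 47.2 FPKM against 48.0, 44.4, 45.8 and 44.2 FPKM, again with leukemic replicate 1 highest. Its log2 fold change of 0.11 had the narrowest interval of the 10 (-0.07 to 0.29, adjusted p = 0.334). For these 3 genes, as for all others of the 10 but Kmt2d, the intervals exclude a change of the size of 1 on the log2 scale in either direction. That limits the difference in RNA level without showing that there is none.

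Ctcf (chr8:105636538-105682922) was 110, 89.0 and 79.4 FPKM in leukemic and 90.1, 87.2, 98.5 and 96.2 FPKM in preleukemic libraries. Leukemic replicate 1 was above and replicate 3 below the whole preleukemic range, so the group means were nearly equal, with a log2 fold change of -0.01 (interval -0.29 to 0.26, adjusted p = 0.940). Arid1a (chr4:133679008-133753611) was 41.9, 37.7 and 54.5 FPKM against 51.3, 57.8, 59.7 and 56.1 FPKM. Leukemic replicates 1 and 2 were below all preleukemic libraries and replicate 3 was among them, for -0.34 (SE 0.13, interval -0.64 to -0.03, unadjusted p = 0.0341, adjusted p = 0.116).

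**Figure D2:**
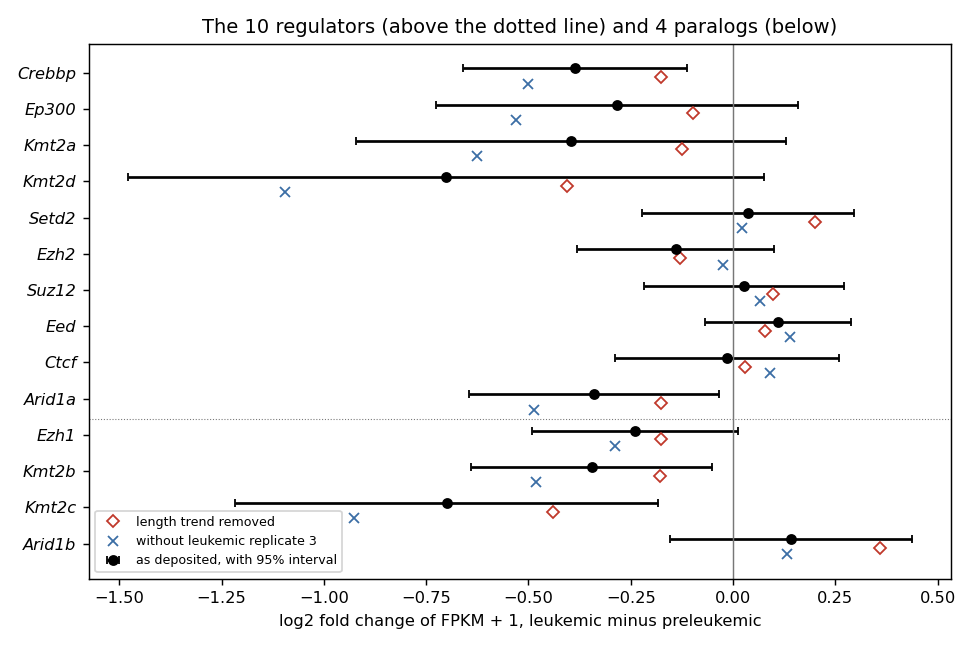
Log2 fold change of FPKM + 1, leukemic minus preleukemic, for the 10 genes and 4 paralogs, as deposited (black, with 95% interval), with the transcript length trend removed (red diamonds) and without leukemic replicate 3 (blue crosses). Without that replicate Kmt2d stands at -1.09, and with the length trend removed at -0.41.

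Leukemic replicate 3 decided whether some of these genes were called. Without it, 4 of the 10 were called, all lower: Crebbp (log2 fold change -0.50, adjusted p = 0.0353), Ep300 (-0.53, 0.0316), Kmt2d (-1.09, 0.0395) and Arid1a (-0.49, 0.0342), where 13.3% of all genes were called and 6.56% were called lower. Without leukemic replicate 1 the log2 fold change of Kmt2d was -0.31 (adjusted p = 0.396), that of Kmt2a -0.11 (0.585) and that of Ep300 -0.10 (0.711). The 3 leukemic libraries therefore did not share a common level of Kmt2d, Kmt2a or Ep300, and with 3 libraries it cannot be said which of them is typical.

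The genes that were low in leukemic replicates 1 and 2 had long transcripts. Taking the longest protein-coding transcript in GENCODE M21, Kmt2d has 19.8 kb, Kmt2a 16.5 kb, Crebbp 10.8 kb, Ep300 9.57 kb, Setd2 8.35 kb and Arid1a 8.19 kb, and Suz12 has 4.37 kb, Ctcf 3.78 kb, Ezh2 2.79 kb and Eed 2.07 kb. As the log2 deviation from the preleukemic mean, the median of the 6 genes over 8 kb was -0.63, -0.41 and 0.06 in leukemic replicates 1, 2 and 3, and that of the 4 shorter genes was 0.22, -0.04 and -0.14. Setd2 was the exception among the long genes, at 0.17, -0.12 and 0.06. The same slope ran through the whole table: the median log2 fold change was 0.19 over the 632 genes up to 1 kb, -0.01 over the 4103 genes of 2 to 4 kb, -0.22 over the 420 genes of 8 to 12 kb and -0.26 over the 90 genes over 12 kb. Called lower were 15.2% of the genes of 8 to 12 kb and 4.87% of those of 2 to 4 kb.

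**Figure D3:**
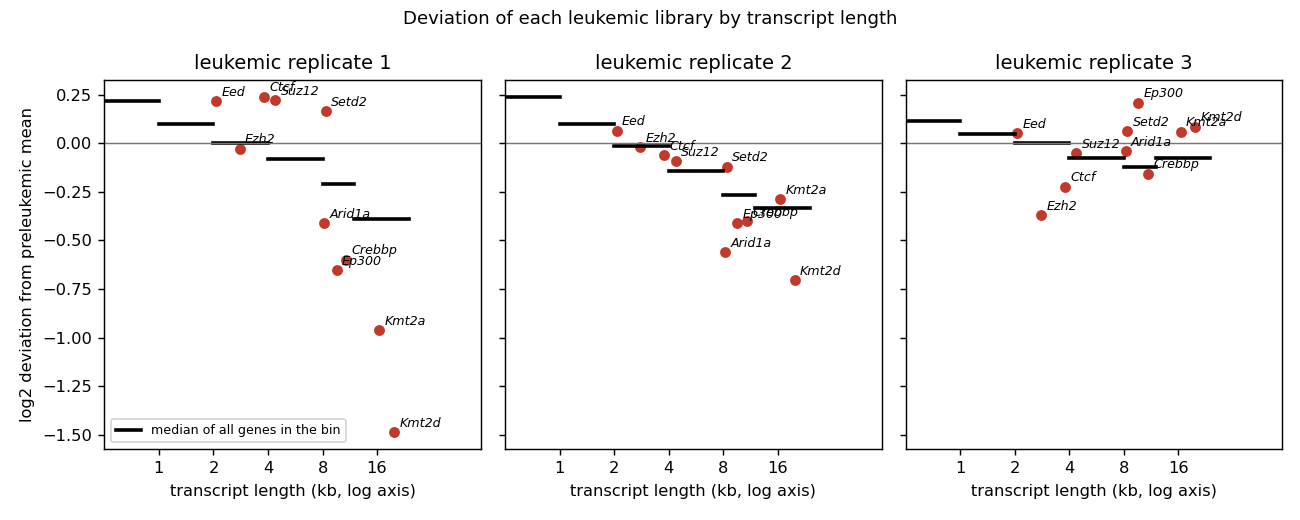
Log2 deviation of each leukemic library from the preleukemic mean against transcript length (kb, log axis), with red points for the 10 genes and black bars for the median of all tested genes in 6 length bins, the last bin (over 12 kb) drawn to 24 kb. In leukemic replicates 1 and 2 the bars step down with length to -0.39 and -0.34, and Kmt2d lies below the bar of its bin at -1.49 and -0.70.

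When each library was centred on its own trend against transcript length, which could be done for the 10152 tested genes with a matched length (96.3%), the differences of the long genes shrank. Kmt2d went to -0.41, Kmt2a to -0.12, Crebbp to -0.18, Arid1a to -0.18 and Ep300 to -0.10, while Setd2 went to 0.20, and the median of the 10 went to -0.11. None was called and none had an unadjusted limma p under 0.05, and the smallest adjusted p was 0.214. RNA integrity values were not analysed here, and the cause of the length trend was not tested.

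Some of the genes lie on chromosomes whose genes were higher as a whole in leukemic libraries. For chromosome 9, which carries Kmt2a and Setd2, the median log2 deviation of its 495 genes with a mean of at least 5 FPKM, less that of all such genes, was 0.33, 0.28 and 0.10 in leukemic replicates 1, 2 and 3 and -0.06 to 0.12 in preleukemic libraries. Setd2, with the same chromosome and a shorter transcript than Kmt2a, deviated by 0.17 where Kmt2a deviated by -0.96, both in leukemic replicate 1. For chromosome 15, which carries Ep300 and Kmt2d, the value was -0.02, -0.01 and 0.20 (343 genes), and leukemic replicate 3 was also the only leukemic library in which Ep300 (0.21) and Kmt2d (0.08) stood above the preleukemic mean. Kmt2a had the same order over the leukemic replicates (-0.96, -0.29 and 0.06), on chromosome 9, whose value was lowest in replicate 3. The chromosomes of the other 6 genes (4, 6, 7, 8, 11 and 16) were between -0.08 and -0.01 in each leukemic library. Chromosome copy number was not measured in these libraries. The parts of copy number, transcript length and other cells in these deviations were not tested.

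Close paralogs make 5 pairs, and the ratio of FPKM + 1 was taken within each library. The log2 ratio of Arid1a to Arid1b, the alternative subunits of the BAF complex, was 0.54, 0.58 and 0.97 in leukemic and 1.32, 1.26, 1.05 and 1.08 in preleukemic libraries. All leukemic values lay below all preleukemic values, with a difference of -0.48, which gives the smallest p that the 35 labelings allow (exact permutation test, p = 0.0286) and 0.143 after Benjamini-Hochberg adjustment over the 5 pairs, and a single pair cannot pass the threshold alone. Arid1b lies on chromosome 17, whose genes as a whole stood at 0.37, 0.37 and 0.40 in leukemic replicates, and it was itself 28.5, 24.9 and 27.3 FPKM against 19.9, 23.5, 28.3 and 26.1 FPKM (log2 fold change 0.14, adjusted p = 0.450). Kmt2d and Kmt2c, the enhancer H3K4 methyltransferases, had mean log2 ratios of 0.58 ± 0.30 (SD, n = 3) and 0.58 ± 0.20 (n = 4) in leukemic and preleukemic libraries, a difference of -0.0016 (exact permutation p = 1). Differences were 0.10 for Ezh2 to Ezh1 (exact permutation p = 0.6), -0.10 for Crebbp to Ep300 (0.514) and -0.05 for Kmt2a to Kmt2b (0.8).

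**Figure D4:**
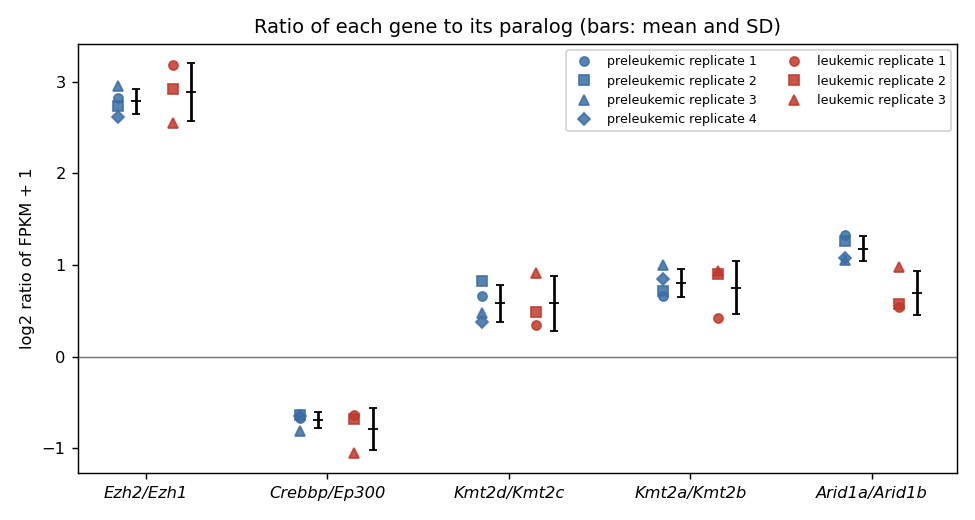
Log2 ratio of FPKM + 1 of each gene to its paralog, with 1 point per library (preleukemic blue, leukemic red) and mean with SD beside each group. The Arid1a/Arid1b points of the leukemic libraries (0.54 to 0.97) lie below those of the preleukemic libraries (1.05 to 1.32), and the groups overlap for the other 4 pairs.

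The paralogs themselves gave 0 calls of 4 by limma, with 2 at an unadjusted p under 0.05, against 34% of all genes tested. Kmt2c (log2 fold change -0.70, adjusted p = 0.0730), Kmt2b (-0.35, 0.103) and Ezh1 (-0.24, 0.163) had all leukemic libraries below all preleukemic libraries. Kmt2c was 5.80, 9.63 and 12.6 FPKM in leukemic replicates 1 to 3, the order seen for Kmt2d. Without leukemic replicate 3, limma called Kmt2c (-0.93, adjusted p = 0.0365) and Kmt2b (-0.48, 0.0353) lower, where 6.56% of all genes were called lower.

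Around the 10 genes stood 11 lists of partners, paralogs, antagonists, other chromatin genes and known targets, with 121 gene symbols. Of these, 120 were in the deposited table and 112 were tested. Called were 16 (14.3%, beside 14.7% of all genes), with 13 lower and 3 higher, and the median log2 fold change of the 112 was -0.15. The count depended on the preleukemic libraries, with 10, 3, 3 and 2 called without preleukemic replicate 1, 2, 3 and 4. With the length trend removed, Kat6a (adjusted p = 0.0723), Hdac7 (0.071), Mau2 (0.11) and Chd4 (0.105), described next, were no longer called, and Wapl had no matched length and was not in that fit. With the GC trend removed Rnf2 (0.103) and Hdac8 (0.0533) were not called. With both trends removed Rnf2 (0.0838), Kat6a (0.0791), Hdac7 (0.0719), Mau2 (0.0905) and Chd4 (0.0826) were not called. When limma was run without its trend of spread with level, Hdac7 (0.0549), Hdac8 (0.0522) and Mau2 (0.058) were not called. With no filter on low values Rnf2, Dpy30, Bcl7a, Kat6a, Hdac7, Hdac8, Kdm4c, Mau2 and Cdkn2a were not called (adjusted p = 0.0524 to 0.137). Some genes described below as not called did gain a call. Smarca4 was called lower with quantile normalization (0.0328), upper quartile scaling (0.0499) and without leukemic replicate 2 (0.029). Kdm1a was called lower with quantile normalization (0.0414) and no filter (0.0498), and Mef2c higher without leukemic replicate 2 (0.0397). The PRC2 partners held no call (limma, 0 of 8, with 2 at an unadjusted p under 0.05, median -0.09), and the most abundant of them, the histone-binding Rbbp7, was 144 ± 40.7 FPKM in leukemic and 118 ± 14.6 FPKM in preleukemic libraries (adjusted p = 0.339). In PRC1, the complex that ubiquitinates histone H2A, 2 of 12 fell, among them Rnf2, the catalytic RING1B, from 35.4 ± 1.69 to 26.8 ± 3.38 FPKM (log2 fold change -0.39, adjusted p = 0.0412). Phc2, the most abundant PRC1 gene, was 42.8 ± 1.24 against 44.2 ± 4.15 FPKM (adjusted p = 0.786).

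Of 15 KMT2 complex partners, 1 rose and 1 fell. Dpy30, a core subunit, rose from 89.6 ± 8.74 to 132 ± 12.3 FPKM (log2 fold change 0.56, adjusted p = 0.0190), and Men1, which encodes menin, the cofactor of MLL1, fell from 51.3 ± 1.62 to 38.4 ± 3.19 FPKM (-0.41, 0.0206). Among 5 other H3K36 and H3K79 methyltransferases Nsd1 fell from 25.0 ± 1.85 to 14.3 ± 2.63 FPKM (-0.78, 0.0165), while Nsd2, listed as Whsc1, was 44.2 ± 14.2 against 41.7 ± 6.24 FPKM (0.05, adjusted p = 0.887). Among 20 BAF and PBAF subunits tested, Phf10, a PBAF subunit, rose from 24.1 ± 3.17 to 55.0 ± 5.19 FPKM (1.16, 0.00730) and Bcl7a fell from 149 ± 20.3 to 76.4 ± 20.4 FPKM (-0.98, 0.0243). The ATPase gene Smarca4, the most abundant of the BAF list, was 149, 247 and 181 FPKM in leukemic and 232, 289, 324 and 340 FPKM in preleukemic libraries, which overlap, and it was not called (-0.64, adjusted p = 0.0688). Dpy30 and Phf10 lie on chromosome 17.

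Of 8 other acetyltransferases, Kat6a fell from 33.1 ± 2.171 to 24.3 ± 2.68 FPKM (log2 fold change -0.44, adjusted p = 0.0292), and Kat2a, the most abundant, was 33.6 ± 0.762 against 32.6 ± 4.93 FPKM (adjusted p = 0.769). Of 14 deacetylases and corepressors 3 fell, among them Hdac7 (-0.85, adjusted p = 0.0472) and Hdac8 (-0.60, 0.0449). Hdac2, the most abundant, was 79.2 ± 8.64 against 87.0 ± 2.59 FPKM (adjusted p = 0.309). Of 11 demethylases Kdm4c fell (-0.47, 0.0246), and the list had the lowest median of the enzyme lists, -0.45, with 10 of 11 below 0 (52.1% of all genes tested) and 5 with all leukemic libraries below all preleukemic libraries (17.1% of all genes), at a median transcript length of 5.94 kb against 3.04 kb over all genes tested. Its most abundant gene Kdm1a was 50.3 ± 2.12 against 57.8 ± 1.29 FPKM (-0.20, adjusted p = 0.0888).

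Among 13 CTCF and cohesin loop genes, Wapl, listed under its older symbol Wapal, rose from 3.84 ± 1.33 to 25.2 ± 7.86 FPKM. Its product releases cohesin from DNA. The values were 33.6, 18.1 and 23.9 FPKM in leukemic and 5.70, 2.60, 3.82 and 3.25 FPKM in preleukemic libraries, and the log2 fold change of 2.43 (interval 1.82 to 3.04, adjusted p = 0.00734) was the largest of the 112 genes, in a direction that no other call of the list shared. The cohesin loader gene Mau2 fell (-0.37, adjusted p = 0.0491), and Rad21, a ring subunit and the most abundant loop gene, was 150 ± 34.3 against 132 ± 12.8 FPKM (adjusted p = 0.473). Among 14 other chromatin genes altered in B-ALL, some of them in the lists above, the remodeller gene Chd4 fell (-0.32, 0.0306).

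Most of the known targets of MLL1 and PRC2 had low levels. Hoxa5, Hoxa7, Hoxa9, Hoxa10, Meis1, Pbx3 and Cdkn2b were below the expression filter and were not tested, and the 4 Hoxa genes each summed to 0.0950 to 0.324 FPKM over all 7 libraries. Pbx3 was 1.29, 2.19 and 1.34 FPKM in leukemic and 0.562, 0.286, 0.171 and 0.221 FPKM in preleukemic libraries, with no overlap, and Cdkn2b was 0.163, 0.324 and 1.03 against 1.53, 2.82, 0.609 and 0.863 FPKM, which overlap. Cdkn2a, the tumour suppressor locus that PRC2 silences in many cells, fell from 19.5, 45.0, 17.7 and 19.2 FPKM in preleukemic to 9.78, 4.32 and 3.40 FPKM in leukemic libraries (log2 fold change -1.95, SE 0.41, adjusted p = 0.0245), with no overlap between groups. The call was lost without preleukemic replicate 2 (limma adjusted p = 0.0503), 3 (0.0574) or 4 (0.0701), and without leukemic replicate 3 (0.0568). Mef2c, an MLL1 target, was 77.7, 28.7 and 59.7 FPKM against 44.4 to 49.5 FPKM (adjusted p = 0.809). Beside these values stand those of proliferation: Mki67 rose from 92.0 ± 17.8 to 153 ± 18.4 FPKM (log2 fold change 0.74, adjusted p = 0.0316). Of 18 cell cycle genes, 2 were called higher (11.1%, beside 8.47% of all genes tested). A higher leukemic mean on the log2 scale was seen for 17 of the 18, beside 5045 of the 10541 genes tested. Their median log2 fold change was 0.48, beside -0.02 over all genes tested. The summed level of the 18 was 2702, 2049 and 1699 FPKM in leukemic replicates 1 to 3. In preleukemic libraries it was 1155 to 1878 FPKM, which overlaps. Leukemic replicate 1, highest in that sum, was also the highest leukemic library for Setd2, Suz12, Eed and Ctcf. It was the lowest for Crebbp, Ep300, Kmt2a and Kmt2d. For Ezh2 the highest leukemic library (103 FPKM) and for Arid1a the lowest (37.7 FPKM) was replicate 2. A link of these genes with proliferation was not tested.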

How the data were processed

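RNA was made from BCP cells sorted into a stabilising solution, and stranded poly(A) libraries were prepared. The authors deposited 1 FPKM per gene and library for 24341 genes on mm10, with a lowest value of 0.01, and 7665 genes are at that value in all 7 libraries. The submitters' processing notes name STAR 2.5.0b, bedtools 2.17.0, Cufflinks 2.2.1, Bowtie and the package named next, without giving their roles. The authors tested counts with DESeq2. FPKM are not counts, so limma 3.58.1 (R 4.3.3, lmFit and eBayes with a trend) was run on log2(FPKM + 1) in place of that count test. The threshold of 0.05 was kept. The filter used the authors' number, a sum of at least 10, but on FPKM where the authors summed counts, so it is another filter. Fold changes on this scale understate changes of low genes. The fit was tested on simulated data first.

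Depth was read from 2243 genes with a single transcript: with a fragment length of 200 bases assumed, 76.2% to 80.9% of low values came within 0.1 of a whole number of fragments, where 20% would by chance. No 2 libraries shared more than 1 equal value above 0.01. Deposited starts count from 0 (51.3% of 23138 genes start 1 base below the RefSeq start, 2.94% at it), so 1 was added. Chromosome values used genes with a mean of at least 5 FPKM. Named were the 10 genes, 4 paralogs, and from each list the most abundant gene and the 2 called genes with the largest fold change, and of the marker and cell cycle lists only the defining markers and Mki67; some of these genes are not reported here. The genes and lists were chosen with earlier results of these data known. The 5 paralog ratios were tested by exact permutation. Alternatives were another pseudocount (0.1), filter (none, 70), scaling, trend, block or length correction, and leaving out each library. Correction for GC content was added after seeing the data.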

Additional observations from a re-analysis of the deposited data

Results flagged for a closer look

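In groups of 4 libraries, 43 groups of values were examined for a library far from the others, and 2 stood out, where chance gives about 1 in 20. Both were preleukemic replicate 2. Kmt2d was 28.6 FPKM in it and 21.5 to 22.0 FPKM in the other preleukemic libraries. Cdkn2a was 45.0 FPKM in it and 17.7 to 19.5 FPKM in the others. Without this replicate limma called 0 of the 10 regulators, with 1 at an unadjusted p under 0.05. The log2 fold change of Kmt2d was then -0.60 (adjusted p = 0.326). Cdkn2a was then at -1.65 and no longer called (adjusted p = 0.0503).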

How the results depend on the processing

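By limma, none of the 10 genes was called under any alternative run except without leukemic replicate 3 (0 to 4 called when a library was left out), with 0 to 5 at an unadjusted p under 0.05. Calls over all genes numbered 1553, with no filter 706, with a sum of at least 70 951, and 149 to 1620 when a library was left out (932, 443, 271 and 149 without preleukemic replicate 1, 2, 3 and 4). Calls among the other chromatin genes, with the known targets, numbered 16, with no filter 8, and 2 to 20 when a library was left out. Quantile normalization turned the balance of calls from 893 higher and 660 lower to 754 and 907, and upper quartile scaling to 849 and 848. Replicate numbers do not pair the samples (correlations 0.03, 0.05 and -0.09 between deviations of same-numbered libraries). With the number as a replicate block limma called 0 genes, 0 of the 10 and 0 other chromatin genes, with 2429 genes at an unadjusted p under 0.05, and the paralog ratios kept their direction. Preleukemic replicate 4 has no leukemic partner in that block. Fold changes and ratios with the block were those without preleukemic replicate 4 (Crebbp -0.3585 in both), so they are no separate check. The block also leaves less data to estimate the spread, so 0 calls do not show that no gene differs. Values near 0 changed sign: Suz12 with quantile normalization (-0.041), Ctcf with the block (0.0018), the length (0.029), GC (0.014) and joint correction (0.025), and Phc2 with the block (0.0183), the length (0.0136) and joint correction (0.0212). Leaving out a library gave -0.029 to 0.11 for Setd2, -0.072 to 0.0855 for Suz12, -0.14 to 0.0894 for Ctcf, -0.0841 to 0.0183 for Phc2, -0.195 to 0.21 for Whsc1, -0.0122 to 0.29 for Rad21 and -0.18 to 0.52 for Mef2c. For the log2 ratios it gave -0.17 to 0.12 for Kmt2d to Kmt2c, -0.0497 to 0.26 for Ezh2 to Ezh1, -0.18 to 0.0304 for Crebbp to Ep300 and -0.14 to 0.11 for Kmt2a to Kmt2b. Kmt2d to Kmt2c also changed sign with a pseudocount of 0.1 (0.0142) and the length correction (0.0338), as did Kmt2a to Kmt2b with the latter (0.0526). The causes were not tested. Depth gives each value of the 10 genes a counting error of 1.005% to 2.99%.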

Other observations

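The demethylase gene Kdm5b, named after its values were seen because it had the lowest fold change among the lysine demethylases, was 0.869, 11.1 and 12.4 FPKM in leukemic replicates 1, 2 and 3 and 19.0, 23.9, 22.0 and 25.3 FPKM in preleukemic libraries. The groups did not overlap, the log2 fold change was -1.80 (SE 0.65), and the adjusted limma p was 0.0991. Leukemic replicate 1 was the lowest library for this gene, as for Kmt2d and Kmt2a.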
